A study of Mus musculus with 16 samples.

Results

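The 10 genes described here encode precursors of secreted neuropeptides of the hippocampus other than the opioid peptides and neuropeptide Y. They are Sst (somatostatin), Cort (cortistatin), Cck (cholecystokinin), Vip (vasoactive intestinal peptide), Adcyap1 (pituitary adenylate cyclase-activating polypeptide, PACAP), Tac1 (substance P and neurokinin A), Tac2 (neurokinin B), Crh (corticotropin-releasing hormone), Grp (gastrin-releasing peptide) and Nts (neurotensin). They were chosen by symbol. Each had 1 probe set that names a single gene, so that 10 of the 19935 genes tested on the array are described.

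RNA came from the hippocampus of female mice aged 3 months, on an F2 background of C57BL/6J and DBA, which were either wild type or labelled cbp+/-. The latter are heterozygous for a deficiency of Crebbp, the gene of the acetyltransferase CBP, and the wild-type mice were their littermates. They were kept in standard cages (SC) or, for 2 weeks, in a large box with running wheels, tubing and toys (environmental enrichment, EE), and the design asks how genotype and housing change hippocampal transcripts. The 4 groups are wild type in standard cages (WT_SC, 5 pools), wild type in enrichment (WT_EE, 3 pools), cbp+/- in standard cages (CBP_SC, 5 pools) and cbp+/- in enrichment (CBP_EE, 3 pools). Equal RNA amounts of 4 mice went into a pool and each pool onto its own Affymetrix Mouse Gene 1.0 ST array, giving 16 arrays and 64 mice. The deficiency is not described as limited to any cell type, and pooling removes the spread between single mice. All values are log2 of the deposited signal, and since a probe set's brightness depends on its probes, the level of one gene is never compared with that of another.

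Neuropeptides are cut from larger precursors, stored in dense-core vesicles and released during strong firing to act on G protein-coupled receptors. In the hippocampus Sst, Cck, Vip, Cort and Tac1 are made mainly by subsets of GABAergic interneurons, while Adcyap1, Grp and part of Cck are also made by excitatory neurons. Several of these genes, with Sst as the textbook case, are switched on through a cAMP response element (CRE), the site bound by CREB, and CBP is a coactivator of CREB. In whole tissue, fewer cells of a type and less RNA per cell cannot be told apart.

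The promoters of the members on which the housing comparison turns, and of Sst, are shown because they carry the CRE or its 5-base core near the start. RefSeq sequences of assembly GRCm38.p6 were searched on both strands for the full site TGACGTCA and for the core TGACG (read as CGTCA from the other strand); each full site contains the core on both strands. Windows run from 250 bases before to 50 bases after the annotated start, 5′ to 3′ on the strand of the gene, with matches in capitals.
Sst, chr16:23890795-23891094, minus strand: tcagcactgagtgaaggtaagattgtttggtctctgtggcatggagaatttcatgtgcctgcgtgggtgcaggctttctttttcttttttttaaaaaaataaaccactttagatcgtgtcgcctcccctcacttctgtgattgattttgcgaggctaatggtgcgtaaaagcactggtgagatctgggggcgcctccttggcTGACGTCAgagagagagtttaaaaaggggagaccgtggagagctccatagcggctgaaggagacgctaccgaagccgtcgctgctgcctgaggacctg
Adcyap1, chr17:93198767-93199066, plus strand: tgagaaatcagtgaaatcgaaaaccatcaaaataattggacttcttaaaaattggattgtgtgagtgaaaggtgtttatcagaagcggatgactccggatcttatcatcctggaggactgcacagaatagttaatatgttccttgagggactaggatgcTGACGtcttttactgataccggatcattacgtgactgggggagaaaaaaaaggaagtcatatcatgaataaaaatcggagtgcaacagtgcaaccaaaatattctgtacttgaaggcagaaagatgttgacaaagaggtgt
Cort, chr4:149126714-149127013, minus strand: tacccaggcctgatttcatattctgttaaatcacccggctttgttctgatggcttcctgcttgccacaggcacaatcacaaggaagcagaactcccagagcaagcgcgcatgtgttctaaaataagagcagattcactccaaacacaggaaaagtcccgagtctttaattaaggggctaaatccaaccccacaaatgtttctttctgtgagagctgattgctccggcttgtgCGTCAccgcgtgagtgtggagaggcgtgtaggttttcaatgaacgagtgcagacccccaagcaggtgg
Tac1, chr6:7554811-7555110, plus strand: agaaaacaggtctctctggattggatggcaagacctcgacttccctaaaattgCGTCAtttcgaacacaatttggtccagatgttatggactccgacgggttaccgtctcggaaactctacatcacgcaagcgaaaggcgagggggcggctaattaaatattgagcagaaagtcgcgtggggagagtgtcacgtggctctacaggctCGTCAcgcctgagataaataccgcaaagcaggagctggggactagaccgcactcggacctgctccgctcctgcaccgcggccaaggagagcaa

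Of the 10 members, 8 had a window that was searched (9 windows, since Adcyap1 has 2), and no window was searched for Crh and Grp. The selection of member windows skipped a chromosome, so a missing window does not show that a gene located there lacks an entry. The full CRE was found only in the Sst window, from base -48 to base -41 counted from the start. Among all 32851 promoter windows of this length, 1.79% held the full site. The core was present in 7 of the 8 genes searched, against 20.8% of all windows. It began at base -91 in the first Adcyap1 window, at -18 in Cort, at -47 in Cck, at -79 in Vip, at -166 in Nts, and at -197 and -43 in Tac1, which was the member with 2 separate cores. Tac2, for neurokinin B, had no match in its window. A match describes the letters of the window and says nothing on binding in this tissue.

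**Figure D1:**
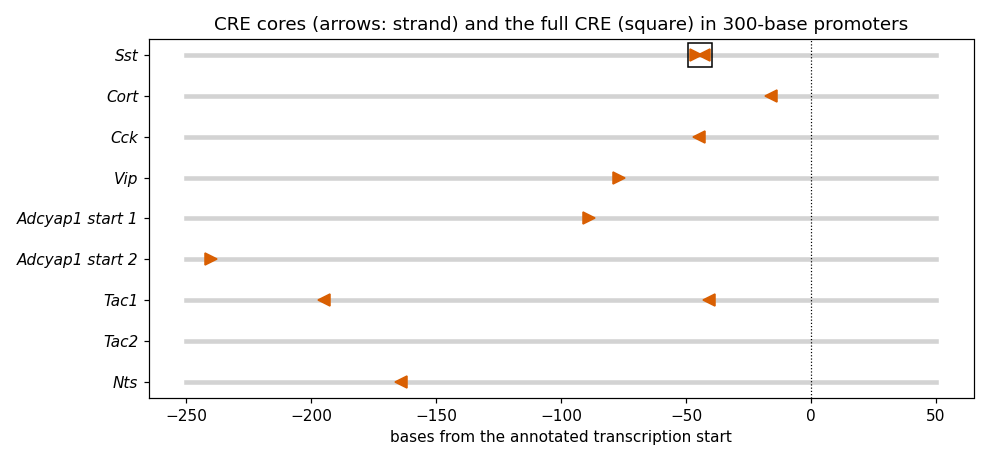
Positions of the CRE core (arrows, pointing along the strand of the match) and of the full CRE (square) in the 9 promoter windows of 8 members; the x axis is the distance in bases from the annotated start (dotted line). The full site is in Sst, and the Tac2 window is empty.

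The data have some features that bear on every value below. Array WT_EE_3 stood alone in an average-linkage clustering of all probe sets. A second clustering by Ward's method, added after the data were seen, placed it with CBP_EE_3 and both SC_5 arrays. Clusters named below are Ward's unless called average-linkage. Further, CBP_SC_3 carried more choroid plexus RNA, with Ttr (transthyretin) at 12.69 against 7.14 to 10.90 on the other arrays. Same-numbered pools of both genotypes within a housing deviated together (correlations of 0.27 to 0.76 over all probe sets), so they are treated as 8 pairs where stated. The EE_1 and EE_2 pairs were the weakest, at 0.29 and 0.27. Crebbp itself was not lower in the arrays labelled cbp+/-: it was higher in 8 of 8 pairs, with an averaged difference of 0.12 (SE 0.08). The sources used here do not say which part of the transcript its probe set reads relative to the mutation, so this probe set does not check the labels, and each genotype difference below is one between arrays so labelled. Markers of hippocampal principal cells were bright in all groups: Prox1, a granule cell factor, lay between 8.02 and 8.82, and Zbtb20 between 9.27 and 10.02.

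No member passed the adjusted threshold in any of the 7 comparisons (limma, adjusted p under 0.05), and 0% of all 21780 probe sets did so either. At an unadjusted p under 0.05 the fit held 1 member for housing in wild type (Cort), 1 for housing in cbp+/- (Adcyap1) and 3 for housing averaged over genotypes (Adcyap1, Cort and Tac1). The background shares at that p were 17.8%, 2.82% and 19.1% of all probe sets, so that 3 of 10 for averaged housing is close to the background. For genotype, Grp alone was under 0.05 when averaged over housings (background 3.91%), and no member was within standard cages (0.987%) or within enrichment (5.23%). With the same-numbered pools as 8 pairs, 4 members were under 0.05 for averaged genotype (Grp, Nts, Crh and Tac2; 11.7% of all probe sets), 1 in standard cages (Grp; 4.39%) and 2 in enrichment (Grp and Nts; 13.0%), and 0 passed the adjusted threshold. With 1 mean per pair, so that both genotypes of a pair are not counted apart, 1 member was under 0.05 for averaged housing (Cort; 11.5% of all probe sets) and 0 passed the adjusted threshold. For the interaction, the test of whether both housing differences are unequal, no member was under 0.05 (2.66%). In no member did the 2 groups compared separate without overlap, against 11.2% of probe sets for housing in wild type, 2.89% for housing in cbp+/-, 0.262% for genotype in standard cages and 10.4% for genotype in enrichment. With limma's array weights in the fit, members did pass. There were 1 for housing in wild type, 1 for housing in cbp+/-, 2 for averaged housing, 1 for genotype in enrichment and 1 for averaged genotype, where 5254, 1039, 6167, 2474 and 152 probe sets passed in all. WT_EE_3 had a weight of 0.26, WT_EE_2 of 6.68 and CBP_EE_1 of 8.63, so the weighted mean of each enrichment group rested mostly on a single pool. Leaving WT_EE_3 out of the unweighted fit left 0 members past the adjusted threshold.

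**Figure D2:**
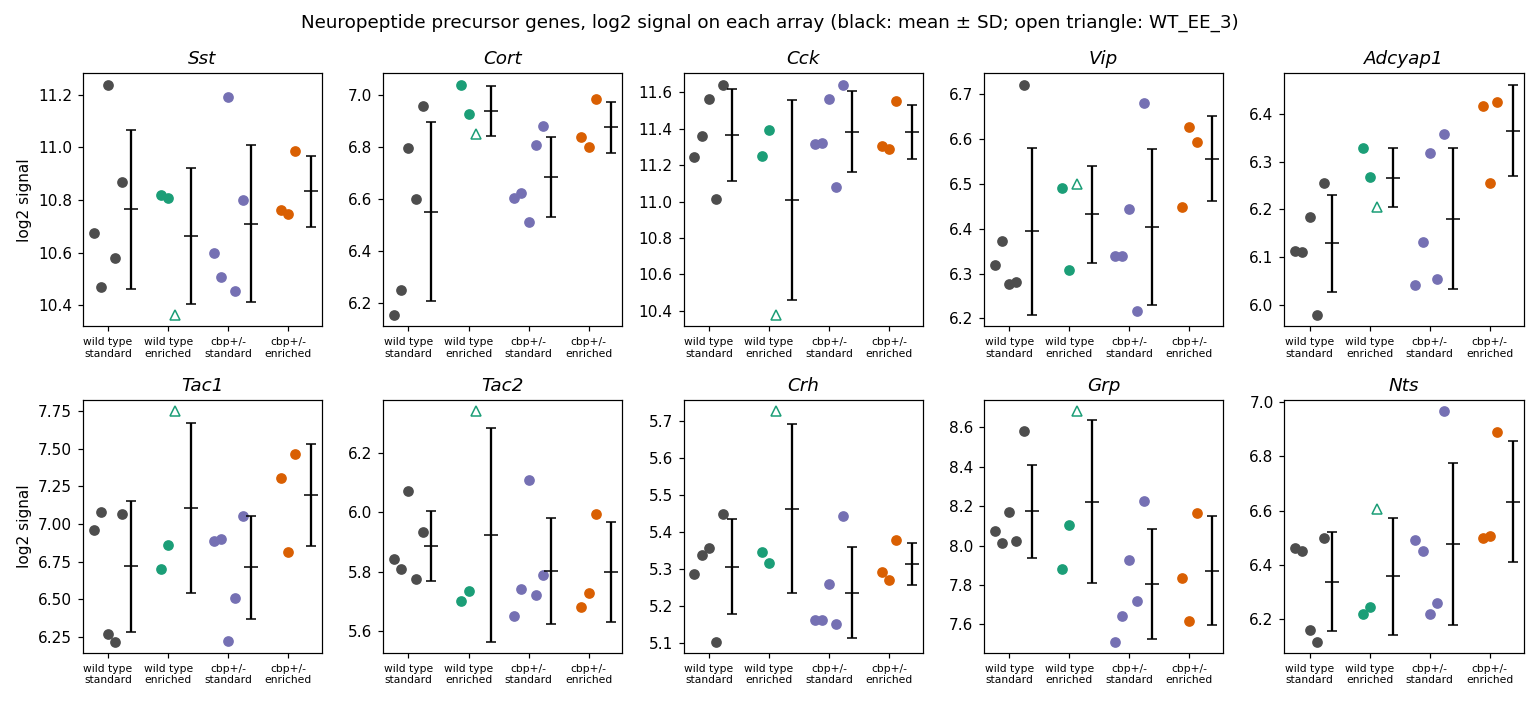
Log2 signal of the 10 precursor genes (y axis, own scale in each panel) on each of the 16 arrays by group (x axis); points are pools of 4 mice in replicate order, bars are mean ± SD (n = 5 in standard cages, n = 3 in enrichment), and the open triangle is WT_EE_3. That array is the lowest of all 16 for Sst and Cck and the highest for Tac1, Tac2, Crh and Grp.

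Across the members the mean after enrichment was above that in standard cages in 9 of 10 genes when averaged over genotypes, with Cck as the exception. The median difference was 0.09, against 0.02 over all probe sets. Probe sets as bright as the dim members (Vip, Nts, Adcyap1, Crh and Tac2) had medians of 0.05 to 0.09, and Tac2, at 0.02, lay below its own of 0.09. Leaving out 1 array at a time left 6 to 9 of 10 members on the higher side; the count was 7 without WT_EE_3 and 6 without CBP_EE_3. Within wild type the members' median difference was 0.04 against 0.03 over all, and it was 0.01 without WT_EE_3, with 6 members higher and 4 lower. Within cbp+/- it was 0.14 against 0.01 over all, and this too leaned on 1 array. Without CBP_EE_3 the cbp+/- differences of Cck, Tac2 and Grp were -0.09, -0.10 and -0.08. Those of Sst, Crh and Nts were then 0.0451, 0.0450 and 0.0267, while Tac1 and Cort kept 0.34 and 0.13. Vip and Adcyap1 did not fall below 0.1055 and 0.1506 with any array left out. Probe sets as bright as Vip and Tac2 had cbp+/- medians of 0.03 and 0.05.

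Somatostatin and cortistatin are sister peptides that act on the same receptors. Cort, the cortistatin precursor, read 6.15, 6.25, 6.79, 6.60 and 6.96 in WT_SC and 7.04, 6.92 and 6.85 in WT_EE. In the arrays labelled cbp+/- it read 6.60, 6.62, 6.51, 6.81 and 6.88 in CBP_SC and 6.84, 6.80 and 6.98 in CBP_EE. All 6 enrichment arrays lay in the upper part of the range; 2 wild-type standard-cage pools were far below the rest, and WT_SC_5 reached into the wild-type enrichment range, so the groups overlapped. The difference was 0.39 in wild type (SE 0.15, a 1.31-fold ratio; adjusted p = 0.219) and 0.19 in cbp+/- (SE 0.15; adjusted p = 0.999). Averaged, it was 0.29 (SE 0.11, 95% interval 0.06 to 0.52; adjusted p = 0.196 by limma), beside a median of -0.01 for the 2178 probe sets of like brightness. The wild-type difference depended on which arrays were set side by side: within the cluster of arrays numbered 1 and 2 it was 0.78, and between WT_EE_3 and WT_SC_5, which share a Ward cluster, it was -0.11. The same values in cbp+/- were 0.21 and 0.11. With 1 mean per same-numbered pair of pools, the averaged interval was 0.02 to 0.56 (adjusted p = 0.421 by limma).

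Sst itself, the marker of dendrite-targeting interneurons and the member with a full CRE, had a housing difference near 0. It read 10.67, 10.47, 11.24, 10.58 and 10.87 in WT_SC and 10.82, 10.81 and 10.36 in WT_EE. It read 10.60, 10.51, 11.19, 10.45 and 10.80 in CBP_SC and 10.76, 10.75 and 10.99 in CBP_EE. Both pools numbered 3 from standard cages were the highest arrays of all, and the groups overlapped throughout. The averaged housing difference was 0.01 (SE 0.13), with a 95% interval of -0.27 to 0.29, which leaves room for changes of either sign. Without WT_EE_3 it was 0.09 (SE 0.13).

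PACAP and VIP are related peptides that share receptors of the same family, which raise cAMP. Adcyap1, the PACAP precursor, read 6.11, 6.11, 6.18, 5.98 and 6.26 in WT_SC and 6.33, 6.27 and 6.21 in WT_EE. It read 6.04, 6.13, 6.32, 6.05 and 6.36 in CBP_SC and 6.42, 6.25 and 6.43 in CBP_EE. In each genotype 2 of 3 enrichment pools lay above every standard-cage pool and the third lay among them. The difference was 0.14 in wild type (SE 0.08; adjusted p = 0.388) and 0.19 in cbp+/- (SE 0.08; adjusted p = 0.999). Averaged, the difference was 0.16 (SE 0.06, 95% interval 0.04 to 0.29, a 1.12-fold ratio; adjusted p = 0.185 by limma). The probe set is dim, with a mean of 6.22 against a median of 6.59 over all, and the 2178 probe sets of like brightness had a median housing difference of 0.05. With 1 mean per same-numbered pair the averaged interval was -0.01 to 0.33 and included 0 (adjusted p = 0.440 by limma). After quantile normalization the averaged difference of Adcyap1 was 0.10 (SE 0.06; adjusted p = 0.578). Within the cluster of arrays numbered 1 and 2 it was 0.19 in wild type and 0.25 in cbp+/-, and within the cluster of SC_5 and EE_3 it was -0.05 and 0.07.

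Vip, a marker of interneurons that inhibit other interneurons, had a smaller averaged difference of 0.10 (SE 0.08; adjusted p = 0.512). Its pools read 6.32, 6.37, 6.28, 6.28 and 6.72 in WT_SC and 6.49, 6.31 and 6.50 in WT_EE. They read 6.34, 6.34, 6.44, 6.22 and 6.68 in CBP_SC and 6.45, 6.63 and 6.59 in CBP_EE. Both standard-cage pools numbered 5 were the highest arrays, above every enrichment pool.

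Tachykinins act on the neurokinin receptors. Tac1, the precursor of substance P, read 6.96, 7.08, 6.27, 6.22 and 7.07 in WT_SC and 6.70, 6.86 and 7.75 in WT_EE. It read 6.89, 6.90, 6.22, 6.51 and 7.06 in CBP_SC and 7.30, 6.81 and 7.46 in CBP_EE. The arrays WT_EE_3 and CBP_EE_3 were the highest of all, and the other wild-type enrichment pools lay inside the standard-cage range. The averaged difference was 0.43 (SE 0.20, 95% interval 0.01 to 0.86, a 1.35-fold ratio; adjusted p = 0.257 by limma). With 1 mean per same-numbered pair the interval was -0.15 to 1.01 and included 0 (adjusted p = 0.527 by limma). Without WT_EE_3 the averaged difference was 0.27 (SE 0.19; adjusted p = 0.427), and the difference within wild type went from 0.39 to 0.06. Within the cluster of arrays numbered 1 and 2 the difference was -0.24 in wild type and 0.16 in cbp+/-, and within the cluster of SC_5 and EE_3 it was 0.68 and 0.41. In the largest average-linkage cluster, which also holds the SC_4 arrays, it was 0.03 and 0.29. With the Ward clusters as a block the averaged difference was 0.16 (SE 0.12; adjusted p = 0.435).

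Tac2, the neurokinin B precursor, did not share this pattern. Its averaged housing difference was 0.02 (SE 0.10), and without WT_EE_3, which read 6.34 against 5.65 to 6.11 on the other 15 arrays, it was -0.09 (SE 0.08). Its pools read 5.84, 5.81, 6.07, 5.77 and 5.93 in WT_SC and 5.65, 5.74, 6.11, 5.72 and 5.79 in CBP_SC. The enrichment pools read 5.70, 5.73 and 6.34 in WT_EE and 5.68, 5.73 and 5.99 in CBP_EE, and apart from WT_EE_3 they lay inside that range.

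Cck, made by basket cells and by principal cells, was the single member with a lower mean after enrichment when averaged over genotypes, and the size of the difference rested on 1 array. WT_EE_3 read 10.38, while the other 15 arrays lay between 11.01 and 11.64. In wild type the housing difference was -0.36 (SE 0.21; adjusted p = 0.375), and it was -0.04 without WT_EE_3; in cbp+/- it was 0.00 (SE 0.21). The averaged difference was -0.18 (SE 0.15) with that array and -0.02 (SE 0.11) without it.

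Crh, the stress peptide made by scattered interneurons, had an averaged difference of 0.12 (SE 0.07; adjusted p = 0.367), and of 0.05 (SE 0.06) without WT_EE_3, its highest array at 5.73. Its other values lay between 5.10 and 5.45, and its probe set was dim, with a mean of 5.32 against the median of 6.59 over all. Grp and Nts had averaged housing differences of 0.06 (SE 0.14) and 0.09 (SE 0.12). Grp read -0.06 (SE 0.13) and Nts 0.03 (SE 0.12) without WT_EE_3, so neither had a housing difference beyond its error.

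**Figure D3:**
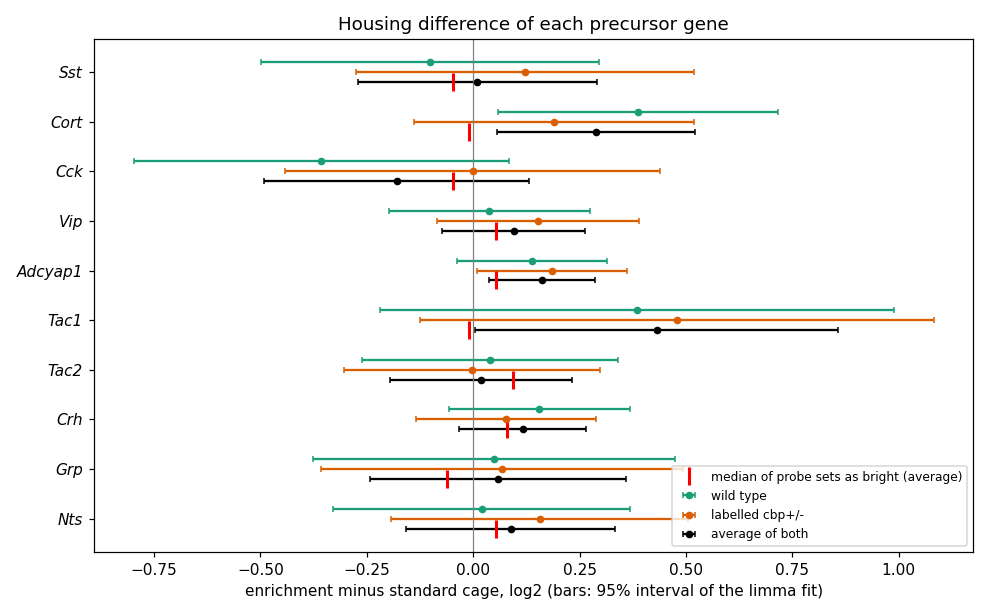
Housing difference of each member (x axis, log2, enrichment minus standard cage) in wild type, in arrays labelled cbp+/- and averaged, with the 95% interval of the limma fit; the red mark is the median averaged difference of probe sets of like brightness. The averaged intervals of Cort, Adcyap1 and Tac1 lie above 0 in this fit, which counts each array as a separate sample; with 1 mean per same-numbered pair only that of Cort does.

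Marker lists of cell types were set beside these values, and their part in the results was not tested; no marker passed the adjusted threshold, and 19.1% of all probe sets were under an unadjusted p of 0.05 for averaged housing. Of 13 markers of GABAergic interneurons measured, 2 had a higher averaged mean after enrichment and 11 a lower one. Under an unadjusted p of 0.05 were 1 higher (Npy) and 4 lower (Reln, Calb2, Dlx1 and Nos1). The list's level, the median deviation of its genes from their own means, was -0.03 to 0.01 in WT_EE, inside the -0.06 to 0.15 of WT_SC. It ran from -0.12 to 0.19 in CBP_SC and from -0.16 to -0.05 in CBP_EE. Gad1, the GABA-making enzyme, was lowest on WT_EE_3 at 9.55, against 9.81 to 10.38 elsewhere. Other markers of the list did not share this. On WT_EE_3 Gad2 read 9.02, above CBP_SC_5 and CBP_EE_3, both at 8.76. Slc32a1 and Lhx6, at 8.24 and 7.04 on WT_EE_3, lay inside the range of the other arrays. Of 10 markers of amygdala and hypothalamus, 10 had a higher mean after enrichment, 2 of them (Hcrt and Pomc) under 0.05, a share close to the background. Their level was -0.07 to -0.01 in WT_SC against 0.00 to 0.20 in WT_EE, and -0.12 to 0.03 in CBP_SC against -0.10 to 0.09 in CBP_EE. Of these 10 probe sets 2 were at or above the median signal: Oxt, between 6.87 and 7.58, and Rspo2, between 7.26 and 7.73. Among the dim ones, Sim1 and Hcrt lay between 5.24 and 5.85 on all arrays, and no probe set reads 0 on this scale. Dim probe sets of any gene leaned higher after enrichment: those as bright as Vip, Crh and Tac2 had medians of 0.05, 0.08 and 0.09. The count of 10 is therefore not read as particular to this list, though the lean of dim probe sets does not cover Oxt and Rspo2. Striatal markers, given because Tac1 and Penk are abundant there, were higher after enrichment in 5 of 7, with 2 higher (Drd1 and Penk) and 1 lower (Pde10a) under 0.05. Their level ran from -0.13 to 0.17 in WT_SC and from -0.08 to 0.20 in WT_EE, and from -0.12 to -0.0010 in CBP_SC and from -0.09 to 0.06 in CBP_EE.

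Averaged over housings and within standard cages, the largest genotype difference among the members was that of Grp, which encodes a bombesin-like peptide; within enrichment that of Cck was 0.38, and 0.06 without WT_EE_3. Grp read 8.07, 8.01, 8.17, 8.02 and 8.58 in WT_SC and 7.51, 7.64, 7.93, 7.72 and 8.22 in CBP_SC. In enrichment it read 7.88, 8.11 and 8.68 in WT_EE and 7.84, 7.62 and 8.17 in CBP_EE. In standard cages 4 of 5 pools labelled cbp+/- lay below every wild-type pool, and CBP_SC_5 lay within the wild-type range. The pool labelled cbp+/- was lower than the wild-type pool of the same number in 8 of 8 pairs, by -0.04 to -0.56, while 1.95% of all probe sets had one sign in 8 of 8 pairs. Grp was the only member to do so.

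The Grp difference was -0.37 in standard cages (SE 0.17; adjusted p = 1.00) and -0.35 in enrichment (SE 0.22; adjusted p = 0.935). Averaged, it was -0.36 (SE 0.14, 95% interval -0.66 to -0.06, a ratio of 0.78; adjusted p = 0.999 by limma). With the same-numbered pools as 8 pairs the value was the same with an SE of 0.06 (adjusted p = 0.189 by limma), so the call did not change. Without WT_EE_3, the array with the highest Grp signal, it was -0.24 (SE 0.13) averaged and -0.12 in enrichment. The unadjusted p was then 0.0841, and it was 0.0700 without CBP_EE_2. Under the 24 other settings the averaged value stayed between -0.44 and -0.24, with adjusted p from 0.0448 (array weights) to 1.00.

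Nts, for neurotensin, ran the other way. It read 6.46, 6.45, 6.16, 6.12 and 6.50 in WT_SC and 6.49, 6.45, 6.22, 6.26 and 6.97 in CBP_SC. It read 6.22, 6.25 and 6.60 in WT_EE and 6.50, 6.51 and 6.89 in CBP_EE. The groups overlapped, but the pool labelled cbp+/- was higher in 7 of 8 pairs, and it was higher by 0.26 to 0.29 in the 3 enrichment pairs. The averaged difference was 0.21 (SE 0.12, 95% interval -0.04 to 0.45; adjusted p = 0.999 by limma). With the 8 pairs its SE was 0.05 (adjusted p = 0.243). Without WT_EE_3 the averaged Nts difference was 0.27 (SE 0.12, adjusted p = 0.821 by limma), and without CBP_EE_3 it was 0.14. In the fit without WT_EE_3, Nts in place of Grp was the 1 member under an unadjusted p of 0.05. The share of all probe sets was not taken for that fit.

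Crh and Tac2 were each lower in the pool labelled cbp+/- in 7 of 8 pairs, by small amounts. The share of all probe sets with one sign in 7 of 8 pairs was not taken, so this count is only a description wherever it is given. Probe sets as bright as Crh and as Tac2 had median averaged genotype differences of -0.04 and -0.04. The averaged difference was -0.11 (SE 0.07) for Crh and -0.10 (SE 0.10) for Tac2. Their largest pair differences, -0.35 for both, belong to the pair that holds WT_EE_3. Without that array the averaged values were -0.04 for Crh and -0.0002 for Tac2. For Sst and Cck the same pair gave 0.62 and 1.18, while their other 7 pairs lay between -0.13 and 0.04 for Sst and between -0.11 and 0.07 for Cck. Vip, Cort, Tac1 and Adcyap1 had averaged genotype differences of 0.07 (SE 0.08), 0.04 (SE 0.11), 0.04 (SE 0.20) and 0.08 (SE 0.06), with 95% intervals that include 0. Without WT_EE_3 the values were 0.08, 0.01, 0.20 and 0.06.

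**Figure D4:**
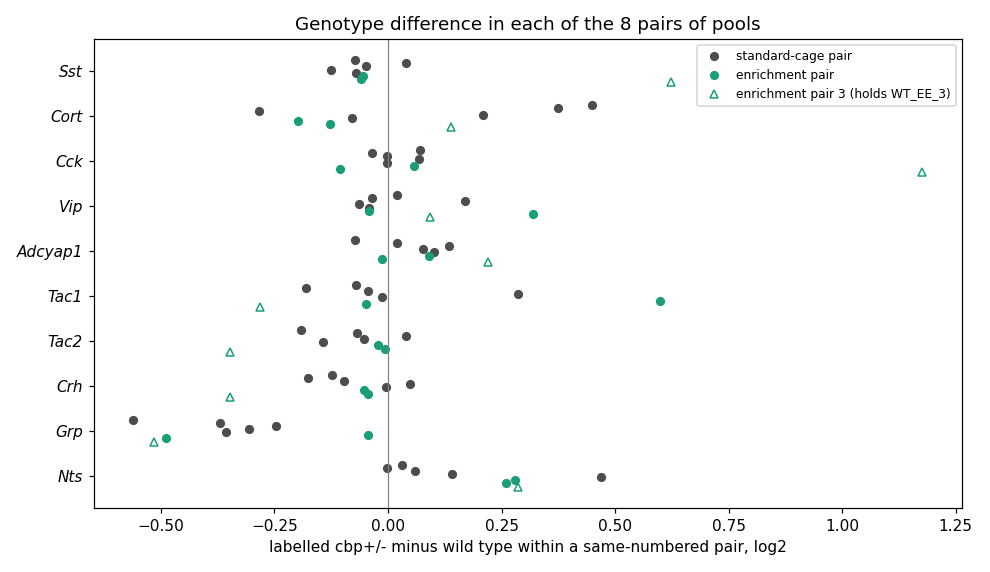
Genotype difference (x axis, log2, labelled cbp+/- minus wild type) within each of the 8 same-numbered pairs of pools for each member; grey points are standard-cage pairs, green points enrichment pairs, and the open triangle is the pair that holds WT_EE_3. Grp lies below 0 in 8 of 8 pairs and Nts above 0 in 7.

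Whether enrichment moved the members differently in the 2 genotypes was tested as the interaction, the difference in cbp+/- minus that in wild type. No member had an adjusted p below 1.00. The estimates ran from -0.20 (SE 0.22) for Cort to 0.36 (SE 0.29) for Cck, and the SE over members was between 0.12 and 0.40. For Adcyap1 the interaction was 0.05 (SE 0.12, 95% interval -0.20 to 0.30) and for Tac1 0.09 (SE 0.40). Without WT_EE_3 they were 0.02 (SE 0.13) for Adcyap1 and 0.41 (SE 0.37) for Tac1, and that of Cck was 0.04 (SE 0.22). These intervals are wide beside the housing differences themselves, so an equal response in both genotypes is not shown.

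More of the spread of these genes lay between pairs of pools than between genotypes or housings, but this order alone carries little weight. The 8 pairs give that term more degrees of freedom than genotype or housing, so it takes a larger share even without an effect. The pair of pools within a housing took 39.6% (Cort) to 82.5% (Tac2) of a member's variance, with a median of 62.3% against 54.3% over all probe sets. Housing took 35.6% in Adcyap1, 32.2% in Cort and 24.9% in Tac1, and genotype took 33.4% in Grp and 16.6% in Nts. In some pairs most members lay on one side: both SC_5 pools were above their group mean in 9 of 10 members. Both SC_4 pools were below it in 9, both SC_1 pools in 8, and both EE_3 pools were above it in 6. Other pairs were mixed: both SC_3 pools were above it in 5 and below it in 2, and both EE_1 pools in 1 and 4. These counts were not made over all probe sets, which also deviated together within pairs. They are therefore not read as particular to the members.

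**Figure D5:**
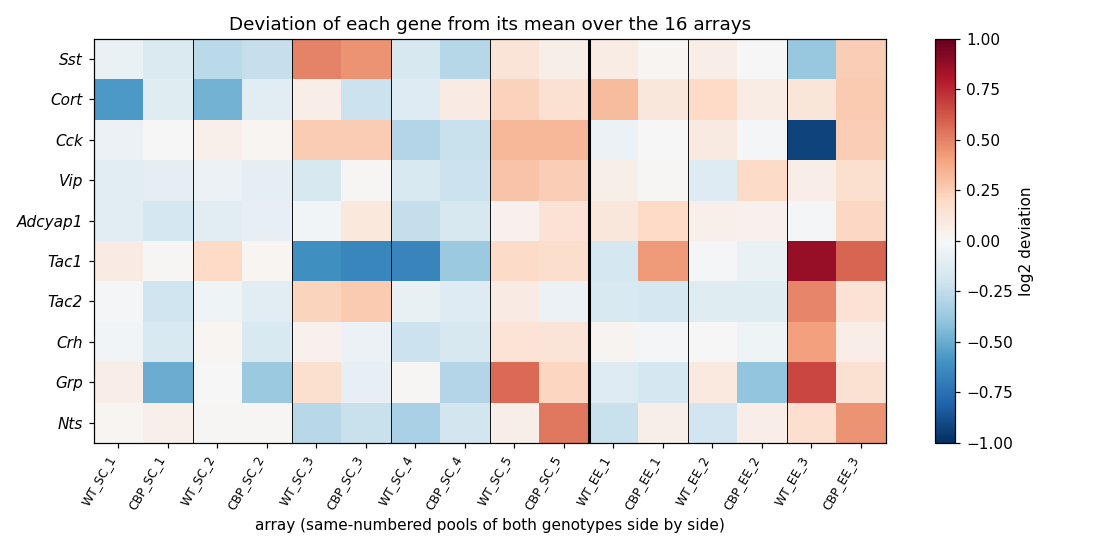
Deviation of each member (rows) from its mean over the 16 arrays (columns, same-numbered pools of both genotypes side by side; colour, log2). Columns of a pair often look alike, as in the standard-cage pools numbered 3, where Sst is high and Tac1 low in both genotypes, and WT_EE_3 is high in Tac1 and low in Cck.

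The members fell into groups that varied together over the 16 arrays. These are descriptions across pools that deviated together in same-numbered pairs and that include the arrays above. The labels name no batch. Crh and Grp had a Pearson correlation of 0.82, Grp and Tac2 of 0.72, and Crh and Tac2 of 0.69, and in each of these WT_EE_3 is the highest array of both genes. Tac1 and Nts had 0.75, Sst and Cck 0.70, Vip and Nts 0.67, and Vip and Adcyap1 0.66. Sst and Cort, the pair of sister peptides, had 0.25, and Tac1 and Tac2 0.21.

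Among bright probe sets of other genes, the one most like each member over 16 arrays was Paqr8 for Sst (r = 0.93), Cox6a2 for Cort (0.90), Wdr45 for Cck (0.94) and Iah1 for Vip (0.90). It was Bpnt1 for Adcyap1 (0.85), Ap3s1 for Tac1 (0.97), Bcl7b for Tac2 (0.93), Itgb1bp1 for Crh (0.93), Net1 for Grp (0.87) and Med6 for Nts (0.94). None of these is a neuropeptide precursor.

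Ordered by group mean, most neighbouring groups differed by less than the larger of their SDs. Cort ran WT_EE, CBP_EE, CBP_SC, WT_SC, and the step from CBP_EE (6.87 ± 0.10, SD, n = 3) to CBP_SC (6.68 ± 0.15, SD, n = 5) exceeded it. Grp ran WT_EE, WT_SC, CBP_EE, CBP_SC, and the step from WT_SC (8.17 ± 0.24, SD, n = 5) to CBP_EE (7.87 ± 0.28, SD, n = 3) exceeded it. Adcyap1 ran CBP_EE, WT_EE, CBP_SC, WT_SC, and CBP_EE (6.37 ± 0.10, SD, n = 3) was above WT_EE (6.27 ± 0.06, SD, n = 3) by just over the larger SD. Vip ran CBP_EE, WT_EE, CBP_SC, WT_SC, with CBP_EE (6.56 ± 0.09, SD, n = 3) above WT_EE (6.43 ± 0.11, SD, n = 3). In Sst, Cck, Tac1, Tac2, Crh and Nts no step exceeded the SD.

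The receptors of these peptides were measured in full, 19 of 19, and 0 passed the adjusted threshold in any comparison. For averaged housing 13 were higher and 6 lower, with a list median of 0.04 against 0.02 over all; 2 of the higher and 1 of the lower were under an unadjusted p of 0.05. Nmbr, the receptor of the Grp relative neuromedin B, was higher by 0.22 (SE 0.07; adjusted p = 0.168), and Sstr4, a somatostatin receptor, had a difference of -0.38 (SE 0.17; adjusted p = 0.254). For averaged genotype 16 of 19 were lower, with a median of -0.06 against -0.01 over all. Dim probe sets lean lower for genotype: those as bright as Crh, Tac2 and Vip had medians of -0.04, -0.04 and -0.02, against 0.03 for those as bright as Grp. Several receptors are dim, such as Vipr2 (mean 5.25), Cckar (5.42) and Sstr5 (5.46), so the count is not read as a receptor result. Sstr2, another somatostatin receptor, was lower in 8 of 8 pairs, with a difference of -0.21 (SE 0.08; adjusted p = 0.999), and it was the only receptor under an unadjusted p of 0.05 for averaged genotype.

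Related ligands and the Crh-binding protein were higher after enrichment in 8 of 8 measured, with a median of 0.13 against 0.02 over all, and 0 passed the adjusted threshold. Probe sets of like brightness had medians of -0.06 to 0.09, and 7 of the 8 lay above the median of their own brightness class. Under an unadjusted p of 0.05 were 5 of them (Ucn2, Crhbp, Gip, Tac4 and Ucn3), against 19.1% of all probe sets. Crhbp, which binds and neutralizes Crh, had a difference of 0.29 (SE 0.09; adjusted p = 0.157). Tac4, a tachykinin precursor, differed by 0.32 in wild type (SE 0.07; adjusted p = 0.112) and by -0.01 in cbp+/-, with an interaction of -0.33 (SE 0.11; adjusted p = 1.00). Ucn2, Gip, Tac4 and Ucn3 are dim probe sets, with means of 5.17, 5.71, 5.44 and 5.36.

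Of 8 enzymes and chaperones that process peptide precursors, 7 were measured under a single symbol, and 0 passed the adjusted threshold. Pcsk1, the prohormone convertase, was lower in 7 of 8 pairs, with an averaged genotype difference of -0.22 (SE 0.06; adjusted p = 0.999). Cpd, a carboxypeptidase, differed by -0.21 with enrichment (SE 0.06; adjusted p = 0.155) and by -0.14 with genotype (SE 0.06). The list's median was 0.01 for averaged housing, against 0.02 over all.

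Other peptide precursors of the same arrays had larger housing differences: Penk, for enkephalin, 0.85 (SE 0.20; adjusted p = 0.127) and Npy 0.61 (SE 0.14; adjusted p = 0.127). Pdyn, for dynorphin, had 0.08 (SE 0.08); Penk was also lower in the pool labelled cbp+/- in 8 of 8 pairs (-0.34, SE 0.20).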

How the data were processed

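Hippocampal RNA was measured on 16 single-colour arrays, and groups and replicate numbers came from the titles. The deposited values are linear intensities per probe set; GeneSpring GX is named per the labels' protocols and RMA per the submitters' processing notes, while the sources used here give neither versions nor a genome build. Scanner files were not used here, so whether a baseline was subtracted is unknown. Of 28815 probe sets, 21780 carried 1 symbol in the platform table and were tested; 1605 with several symbols and 5430 unnamed were left out. Log2 of the intensity was fitted with limma 3.58.1 in R 4.3.3 (lmFit, eBayes; 4 group means, 12 residual degrees of freedom), checked on simulated data, with Benjamini-Hochberg adjustment over all tested probe sets; intervals are at 95%. The medians of the arrays lay between 76.7 and 85.46, the range of values was 22.12 to 16520.86, and the number of arrays limits the precision. Per the labels' protocols, pools are independent biological replicates.

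The members and lists were chosen with earlier results of these data known. All members were named, with the 3 smallest unadjusted p for averaged housing and the 2 smallest for averaged genotype described in most detail; genes of the lists were named at an unadjusted p under 0.05, and the bright probe sets most correlated with each member were listed. Same-numbered pools of both genotypes in a housing had correlated deviations (0.27 to 0.76 in 8 of 8 pairs), so they were treated as pairs, which the labels do not state. Across housings the correlations were -0.33 to 0.42, and those pools were not paired. The EE_1 and EE_2 pairs, at 0.29 and 0.27, lay below cbp+/- pools 1 and 2 across housings, at 0.42 and 0.33. The pairing in enrichment is therefore less sure, and differently numbered pools were not compared. RefSeq (GRCm38.p6) matched 10 of 10 members; it annotates a long non-coding RNA gene over Cck, Crh, Grp and Adcyap1 (4 members), whose reading by these probe sets was not tested. Alternatives were quantile normalization, average-linkage clusters of arrays or replicate numbers as a block, array weights, dim probe sets left out and each array left out. Ward clusters (4 sets), values within them and the pair blocks (fixed, random or as pair means) were added after the data were seen.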

Additional observations from a re-analysis of the deposited data

Results flagged for a closer look

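In 20 sets of 5 standard-cage arrays (10 members in both genotypes), the highest or lowest array was compared with its nearest neighbour relative to the range of the set; chance puts about 1 in 20 such sets past the limit used. WT_SC_5 was past it for Vip, at 6.72 with the next wild-type standard-cage array at 6.37. It was also past it for Grp, at 8.58 with the next at 8.17. Its same-numbered counterpart CBP_SC_5 was the highest of its own group for both genes, at 6.68 and 8.22.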

How the results depend on the processing

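Array weights moved the number of members past the adjusted threshold from 0 to 1 for housing in wild type (Cort, 0.57, adjusted p = 0.00213), to 1 for housing in cbp+/- (Adcyap1, 0.29, adjusted p = 0.0124), to 2 for averaged housing (Cort, 0.38, adjusted p = 0.00152; Adcyap1, 0.22, adjusted p = 9.10e-04), to 1 for genotype in enrichment (Nts, 0.26, adjusted p = 0.0437) and to 1 for averaged genotype (Grp, -0.36, adjusted p = 0.0448); the cause was not tested. Every other setting left that number at 0, including each array left out. Of 1625 refitted member values, 11 changed sign from a value beyond 1 SE of 0, in 6 member comparisons, and 116 changed sign from a value within 1 SE. Cck reversed with the average-linkage clusters as a block and with array weights, given here in that order. It went to 0.0975 and 0.0187 for housing in wild type, and to -0.0625 and -0.0341 for genotype in enrichment. It went to -0.0825 and -0.0311 for the interaction, 0.0562 and 0.0031 for averaged housing, and -0.0212 and -0.0186 for averaged genotype. Both settings reduce the share of WT_EE_3, and without it the 5 values kept their sign but were nearer 0. With the Ward clusters as a block, Cck for housing in wild type did not reverse and was -0.40 (SE 0.20). Tac1 for housing in wild type reversed to -0.0145 with array weights. Within Ward clusters, housing in wild type reversed to -0.24 for Tac1 (arrays 1 and 2), -0.0501 for Adcyap1 and -0.11 for Cort (WT_EE_3 minus WT_SC_5). With the replicate number as a replicate block, averaged housing was 0.42 for Cort (SE 0.10; adjusted p = 0.0584), 0.17 for Adcyap1 (SE 0.05; adjusted p = 0.0935) and 0.43 for Tac1 (SE 0.23; adjusted p = 0.253), and 326 probe sets passed over the whole array against 0 without it; the paired fits within housing (a replicate block of 8 pairs, fixed or random, and pair means) changed no call at the adjusted threshold. Over all probe sets, leaving out CBP_EE_3 gave 230 calls for averaged housing and 19 for housing in wild type, and CBP_EE_2 gave 7 for the latter. Quantile normalization moved the median averaged housing difference of all probe sets from 0.02 to 0.00. Dim probe sets (Vip, Tac2, Crh, Nts and Adcyap1) lie below the median signal, which limits how well small differences can be read, and the dim filter leaves no value for them.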
